A study of Homo sapiens with 40 samples.

Results

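CDX1, CDX2, PDX1, GSX1, FOXA1, FOXA2, FOXF1, GATA4, GATA6 and SOX17 are 10 genes for transcription factors of the endoderm and of the ParaHox family. They were chosen by name and with H3K27me3 peak coverage in view, since CDX2, FOXA2 and FOXF1 carried less of it in NSD2 knockout clones. They are 10 of the 19451 protein-coding genes scored in KMS-11, a human multiple myeloma line with the t(4;14) translocation that drives the histone methyltransferase NSD2. H3K27me3 was mapped by CUT&Tag, in which an antibody directs a transposase to chromatin that carries the mark, and the study asked how the mark moves when NSD2 is lost. Each gene's value is its covered percent, the share of its annotated bases that lies inside a deposited peak.

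The 30 libraries formed 15 groups of 2. NSD2 knockout (KO) clones 3 and 12 were set against the parental wild-type line from which they were derived, called KO parental here. NSD2-dTAG clones 8 and 11 carry a degradation tag on NSD2 and were taken at days 0, 7, 14 and 21 of the degrader dTAGV-1, given at 100 nM. The parental line used to make those clones, called dTAG parental here, carries no tag and was taken on the same days of the compound, at a dose the labels do not state. KO clones differ from their parental line in having been grown from single cells as well as in NSD2, and these cannot be told apart in that comparison. The dTAG clones on later days were set against the same clones on day 0.

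Trimethylation of lysine 27 on histone H3 is laid down by Polycomb repressive complex 2 and marks developmental genes that a cell keeps silent. NSD2 deposits dimethylation on lysine 36 of the same histone, a mark that impedes the Polycomb enzyme on the same tail. The ParaHox genes are the sister family of the HOX clusters: GSX1 acts in the brain, PDX1 in the pancreas and duodenum, and CDX2 in the intestine. In the human genome these 3 lie in a cluster on chromosome 13, while CDX1, a second intestinal factor, lies on chromosome 5. FOXA1 and FOXA2 are pioneer factors that open chromatin in early endoderm and liver, GATA4, GATA6 and SOX17 specify endoderm, and FOXF1 acts in the mesoderm that surrounds the gut.

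The starts of CDX2, FOXA1 and GATA6 show how differently peaks lay over these genes. The 250 bases before each annotated start are printed because a peak covered none of that window in any library at CDX2, reached it in 1 of 30 libraries at FOXA1 and reached it in 30 of 30 at GATA6. Capitals mark CG, the dinucleotide that is dense in many promoters where Polycomb binds. The sequences are RefSeq's on GRCh38.p14, 5′ to 3′, from chr13:27969316-27969565 on the minus strand, chr14:37595250-37595499 on the minus strand and chr18:22169339-22169588 on the plus strand.
CDX2: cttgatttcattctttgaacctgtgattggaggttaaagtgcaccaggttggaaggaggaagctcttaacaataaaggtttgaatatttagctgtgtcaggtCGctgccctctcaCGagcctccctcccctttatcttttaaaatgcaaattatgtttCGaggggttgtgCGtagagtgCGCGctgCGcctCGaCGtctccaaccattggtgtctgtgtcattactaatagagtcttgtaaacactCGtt
FOXA1: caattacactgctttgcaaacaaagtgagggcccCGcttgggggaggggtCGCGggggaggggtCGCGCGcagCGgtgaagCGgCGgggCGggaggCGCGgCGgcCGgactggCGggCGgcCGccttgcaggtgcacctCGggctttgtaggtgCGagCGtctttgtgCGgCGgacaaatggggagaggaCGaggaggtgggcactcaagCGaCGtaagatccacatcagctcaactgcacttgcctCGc
GATA6: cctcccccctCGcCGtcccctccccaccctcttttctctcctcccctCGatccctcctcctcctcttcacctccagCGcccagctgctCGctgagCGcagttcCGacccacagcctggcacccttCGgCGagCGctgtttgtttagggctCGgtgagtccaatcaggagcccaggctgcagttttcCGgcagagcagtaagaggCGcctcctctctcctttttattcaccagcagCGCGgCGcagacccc

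CG occurred 10 times in the CDX2 window, 26 times in the FOXA1 window and 16 times in the GATA6 window. The same window of GSX1 held 14 and was reached by a peak in 8 of 30 libraries. Over 35116 promoter windows of the same length the median was 11, so that 52.2% held at least as many as CDX2, 41.0% as GATA6 and 19.6% as FOXA1. CG is its own reverse complement, so both strands give the same count. RefSeq windows were matched by symbol for 4 of the 10 members.

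Across the 30 lists, peaks numbered 34740 to 205920 and covered 36.1 to 168 Mb. Depth is not listed, and an estimated background pileup, in fragments per position, ran from 0.922 to 3.26. Called length averaged 130 Mb in KO clones and 67.4 Mb in KO parental libraries, and in the dTAG clones 50.7 Mb on day 0, 112 on day 7, 113 on day 14 and 120 on day 21. Pileup averaged 2.49 in KO clones against 2.04 in KO parental libraries, and 2.33 in dTAG clones on day 21 against 1.44 on day 0. List length and pileup were thus both higher where NSD2 was lost in both systems. They also rose in the untagged dTAG parental line, from 57.6 Mb and 1.66 on day 0 to 77.8 Mb and 2.37 on day 21. Values from lists shortened to equal length are given as well. NSD2 itself (chromosome 4, 1871393 to 1982192) was covered by at most 0.975%, in 11 of 30 libraries; peaks do not measure its protein or its deletion. Of 8 plasma cell genes, such as SDC1 and JCHAIN, 2 had a median coverage of 0 and the highest median was 8.75%. Of 6 hepatocyte and gut genes, such as ALB and APOA1, 2 also had a median of 0 and the highest median was 25.4%. The highest value in any library was 35.4% among the plasma cell genes and 50.7% among the hepatocyte and gut genes.

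9 of the 10 members passed the filter of a mean coverage between 1% and 99%; SOX17 was 0% covered in 30 of 30 libraries and could not be tested. In the KO clones, limma called 3 members lost and 1 gained, where it called 0.744% of all 13977 tested genes lost and 18% gained. These calls chose the members and are given as description, as are those in the dTAG clones. There it called 1 member gained and 0 lost on day 7 (background 21.1% and 0.243%), 0 gained and 1 lost on day 14 (22% and 0.63%), and 1 gained and 2 lost on day 21 (26.5% and 0.494%). Divided by called length, coverage gave 1515 genes gained and 1882 lost in KO clones, in place of 2510 and 104. On day 21 it gave 2177 and 4452, in place of 3697 and 69. This division lowers every gene most where lists were longest, as they were without NSD2. A small gain can therefore turn negative through the divisor alone, for members as for other genes. With lists shortened to equal length, 10483 genes could be tested, of which 251 were gained and 227 lost in KO clones and 535 and 533 on day 21. Of the members called lost in the KO clones, FOXA2 stood nearest the threshold, at -15.1 ± 4.85 percentage points (SE of the fit). Of the lower members not called, GSX1 came nearest, at -28.1 ± 19.5, but fell well short of it. The corresponding pair on day 21 was GSX1, at -43.8 ± 15.9, and PDX1, which fell less far short, at -15.5 ± 6.47.

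**Figure D1:**
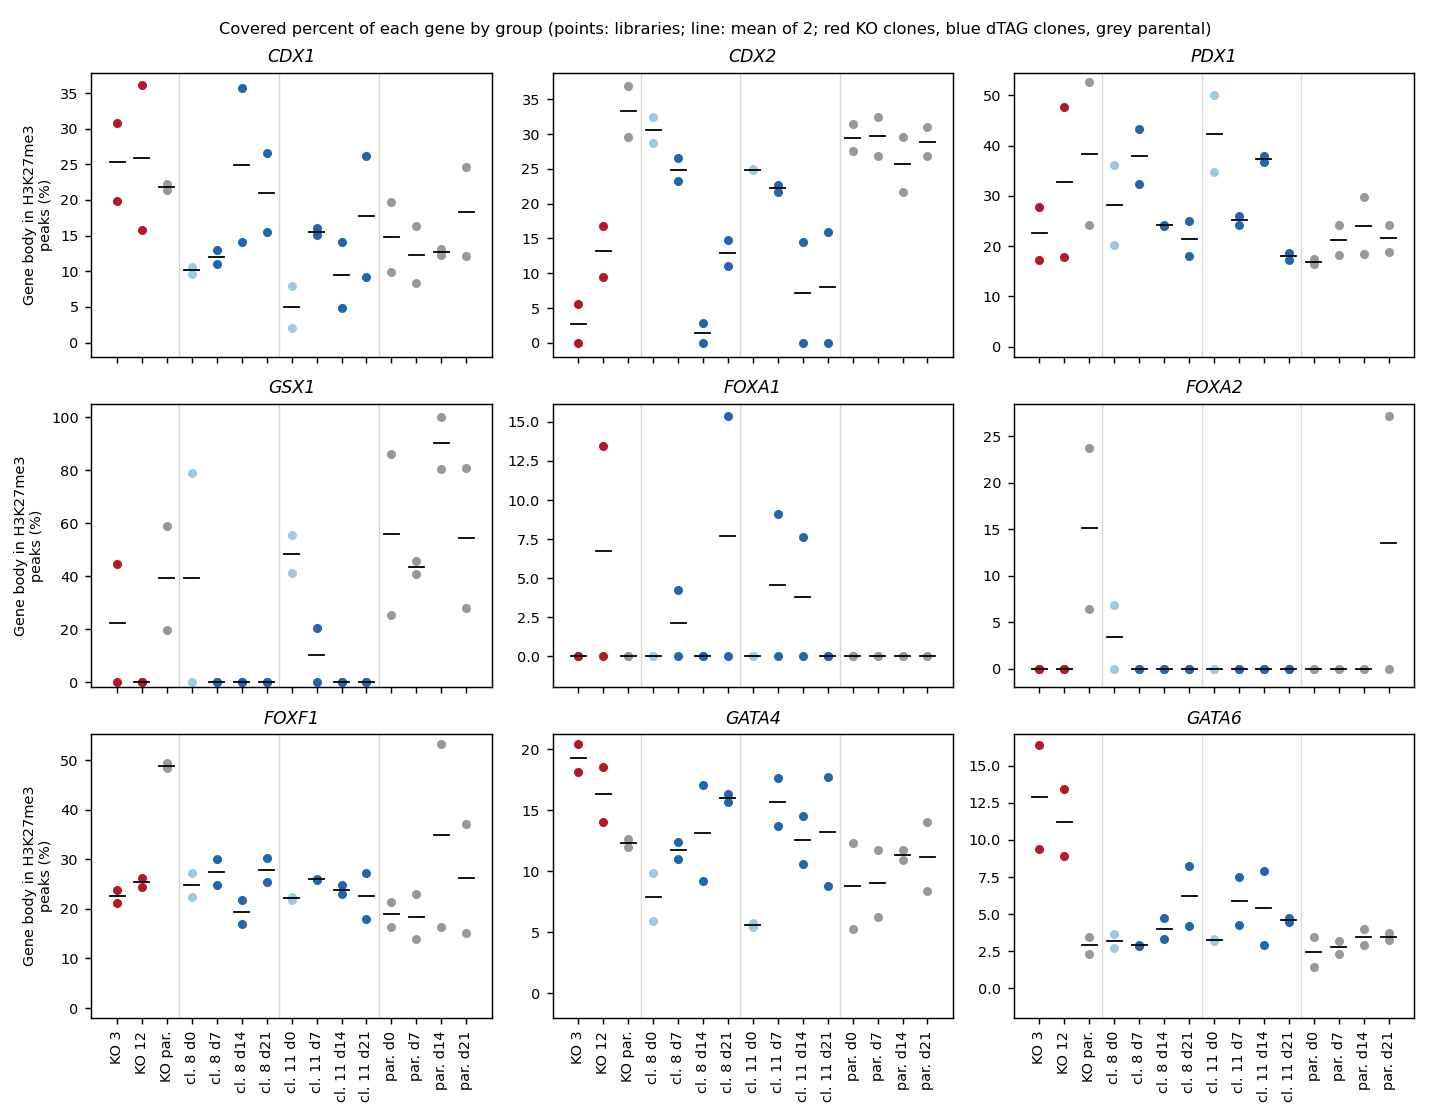
Covered percent (y axis) of 9 members in every library (points) by group (x axis), with the mean of the 2 libraries as a line; KO, knockout clone; par., parental; cl., dTAG clone; d, day. CDX2 was far lower in the treated dTAG clones from day 14. GSX1 had a lower mean there from day 7, although its libraries overlap those of day 0. GATA6 was highest in the KO clones, and SOX17 was 0% in every library and is not drawn.

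CDX2 (gene 1045, chromosome 13, 27960918 to 27969315, 8398 bp), the master regulator of intestinal identity, carried a compact block of the mark inside the gene in both parental lines and in the untreated dTAG clones. KO clone 3 libraries were 5.51% and 0% covered and KO clone 12 libraries 9.42% and 16.8%, against 29.6% and 36.9% in the KO parental libraries. No KO library reached the lower KO parental one. KO clones averaged 7.94% ± 7.08 (SD, n = 4), against 33.3% ± 5.15 (SD, n = 2) in their parental line. The difference of -25.3 percentage points was -33.3 with lists of equal length and -14.8 among peaks with -log10 q of at least 5. That last value rests on KO parental replicate 1 alone, since no other library compared had a CDX2 peak that passed the q filter.

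The dTAG clones held somewhat less of this block on day 7 and far less on days 14 and 21. On day 0 CDX2 was covered by 28.7% and 32.5% in clone 8 and by 24.9% and 24.8% in clone 11. On day 7 the values were 26.5% and 23.3% in clone 8 and 21.7% and 22.7% in clone 11, which lie below day 0 within each clone and overlap it across clones. On day 14 they were 2.83% and 0% in clone 8 and 14.4% and 0% in clone 11, and on day 21 they were 14.8% and 11.1% in clone 8 and 16.0% and 0% in clone 11. Every library of days 14 and 21 lay under every library of day 0. Means were 27.7% ± 3.64 on day 0, 23.6% ± 2.07 on day 7, 4.32% ± 6.88 on day 14 and 10.46% ± 7.27 on day 21 (SD, n = 4 each).

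In the untagged dTAG parental line CDX2 was covered on every day of the compound. Its 8 libraries ran from 21.7% to 32.5%, with a median of 28.6%. limma put day 21 minus day 0 at -0.56 ± 5.14 percentage points there (SE; adjusted p = 1), and the untreated clones at -1.77 ± 4.45 against dTAG parental on day 0 (adjusted p = 1). Neither difference exceeded the spread between libraries. KO clone 3 minus KO clone 12 was -10.4 percentage points by limma (SE 5.14, adjusted p = 0.357), although their libraries did not overlap.

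The block lay downstream of the start. In the first 4 kb of the gene, 15.3% ± 15.7 was covered in KO clones (SD, n = 4) and 69.8% ± 10.8 in KO parental libraries (SD, n = 2); windows within genes were drawn after the peak maps had been seen. In the dTAG clones the same stretch was covered by 58.2% on day 0, 45.7% on day 7, 9.07% on day 14 and 22.0% on day 21. The longest peak touching CDX2 measured 0 to 1414 bp in KO clones and 2487 to 3099 bp in KO parental libraries. What remained was weaker as well as shorter. The caller's own -log10 q was 1.19 to 1.63 for the KO clone peaks and 2.94 to 7.12 for the KO parental ones, and their fold over background 2.43 to 2.83 and 2.98 to 3.00. Upstream, within 5 kb of the start, a peak appeared in 3 of 4 KO libraries, in 1 of 4 dTAG clone libraries on day 14 and in 1 of 4 on day 21. It was listed in 0 of 2 KO parental, 0 of 8 dTAG parental and 0 of 4 dTAG clone libraries on days 0 and 7 each.

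**Figure D2:**
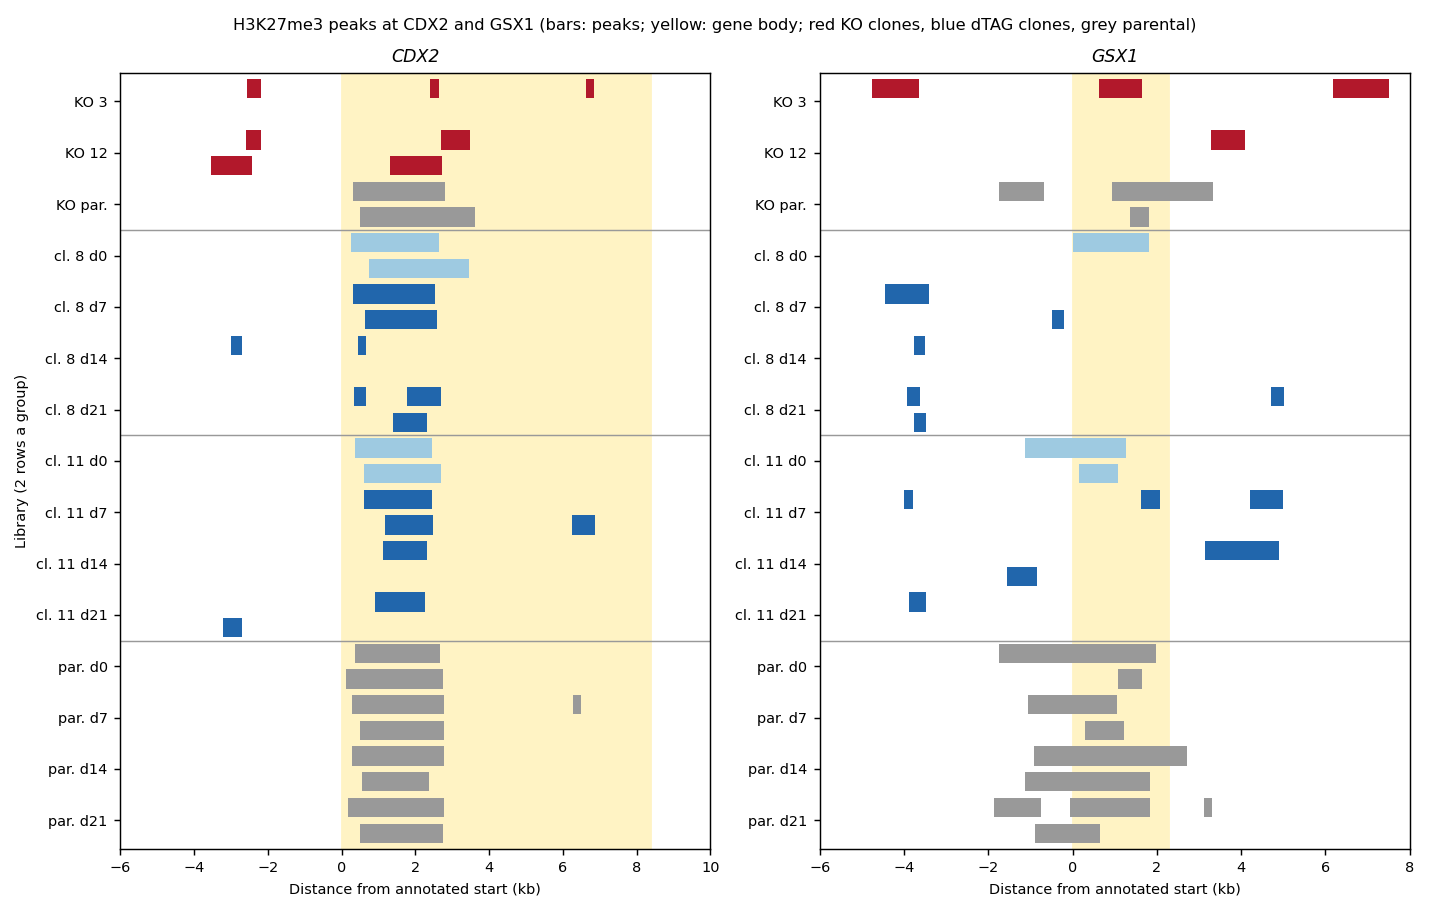
H3K27me3 peaks (bars) at CDX2 and GSX1 against distance from the annotated start in kb (x axis), 1 row for each of the 30 libraries, grouped by clone and day (y axis), with the gene body shaded. The CDX2 block between the start and 4 kb is present in 18 of 18 libraries with NSD2 or on day 7, and short or absent in the KO clones and on days 14 and 21.

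GSX1 (gene 219409, chromosome 13, 27792483 to 27794768, 2286 bp), a factor of the developing brain, stands at the other end of the ParaHox cluster. KO clone 3 libraries were 44.7% and 0% covered and both KO clone 12 libraries 0%, against 59.0% and 19.7% in KO parental libraries, which overlap. In the dTAG clones, day 0 gave 78.7% and 0% in clone 8 and 55.5% and 41.0% in clone 11. On day 7 GSX1 was 20.5% covered in 1 clone 11 library and 0% in the other 3 libraries, and on days 14 and 21 it was 0% in 8 of 8. A day 0 library of clone 8 already lacked a peak, so the days overlap. With lists of equal length the day 21 difference was -10.3 percentage points and the KO one 0, and both were 0 among peaks with -log10 q of at least 5. The dTAG parental line had a peak over GSX1 in 8 of 8 libraries, from 25.3% to 100% with a median of 63.2%.

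For the compound in dTAG parental cells, limma gave GSX1 a day 14 minus day 0 difference of 34.5 ± 22.5 percentage points (SE; adjusted p = 1), and for day 21 one of -1.36 ± 22.5 (adjusted p = 1). GSX1 spans few bases, so that a single peak edge moves its value widely. Between 3 and 5 kb upstream of the start a separate peak was listed in 1 of 4 KO, 2 of 4 day 7, 1 of 4 day 14 and 3 of 4 day 21 libraries. No library of day 0 or of either parental line listed it. That peak was weak, with -log10 q between 1.14 and 2.71.

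PDX1 (gene 3651, chromosome 13, 27920000 to 27926313, 6314 bp), required for the pancreas, lies 34.6 kb from CDX2 and kept a peak in 30 of 30 libraries. KO clones 3 and 12 were 17.2%, 27.9%, 47.6% and 17.8% covered, against 52.6% and 24.2% in KO parental libraries. These overlap over most of their range. The dTAG clones averaged 35.3% ± 12.2 on day 0, 31.5% ± 8.63 on day 7, 30.8% ± 7.65 on day 14 and 19.7% ± 3.55 on day 21 (SD, n = 4 each). On day 21 the libraries held 25.0% and 17.9% in clone 8 and 18.7% and 17.3% in clone 11, which lies within the dTAG parental range of 16.4% to 29.7%. Day 0 libraries held 36.1% and 20.3% in clone 8 and 34.7% and 50.02% in clone 11, and overlap those of day 21.

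Before any compound, each library of the tagged clones exceeded both dTAG parental libraries at PDX1, which held 16.4% and 17.4%. The difference was 18.4 ± 7.93 percentage points (SE), with adjusted p = 1 in limma. The clones differ from their parental line in the tag and in having been selected, which cannot be told apart. PDX1 and FOXF1, 2 members, stood wholly above dTAG parental in that comparison, where 2.45% of tested genes did, and 0 members were called by limma (background 0%). PDX1 was the 1 member with an unadjusted p under 0.05 in limma, against 471 of the 13977 tested genes.

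Between the 3 ParaHox genes the KO clones and KO parental libraries overlapped. Outside these genes, from the start of GSX1 to the end of CDX2, 2.20% ± 0.896 was covered in KO clones (SD, n = 4) and 1.78% ± 0.837 in KO parental libraries (SD, n = 2). KO clone 3 held 2.92% and 2.51% there and KO clone 12 2.48% and 0.893%, against 2.38% and 1.19% in KO parental libraries. Across the dTAG clones it was 0.935% ± 0.483 on day 0, 3.53% ± 0.624 on day 7, 2.89% ± 0.793 on day 14 and 3.11% ± 1.14 on day 21 (SD, n = 4 each). URAD, an enzyme gene 8.40 kb beyond CDX2, was covered by 17.0% ± 9.03 on day 21 and 0% on day 0 (limma adjusted p = 0.0613). In KO clones URAD was covered by 17.2% ± 8.57, against 16.0% ± 10.7 in KO parental libraries (limma adjusted p = 0.964). POLR1D, on the far side of GSX1, was 2.84% ± 0.193 covered in KO clones and 0.242% ± 0.342 in KO parental libraries (limma adjusted p = 0.0214). In the dTAG clones POLR1D was covered by 2.01% ± 1.01 on day 21 and 1.78% ± 1.19 on day 0 (limma adjusted p = 0.843).

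CDX1 (gene 1044, chromosome 5, 150166778 to 150184558, 17781 bp), the second intestinal CDX factor, did not share the course of CDX2. KO clone 3 libraries were 30.8% and 19.9% covered and KO clone 12 libraries 36.1% and 15.8%, on both sides of the KO parental values of 21.4% and 22.3%. In the dTAG clones CDX1 averaged 7.56% ± 3.89 on day 0, 13.8% ± 2.24 on day 7, 17.2% ± 13.1 on day 14 and 19.4% ± 8.49 on day 21 (SD, n = 4 each). Day 7 libraries stood wholly above those of day 0. Those of days 14 and 21 overlapped them across clones, although on day 21 both libraries of each clone lay above that clone's day 0 libraries. Divided by called length, the day 21 difference turned to -0.0329 percentage points, and with lists of equal length to -1.72. Its neighbour PDGFRB, a growth factor receptor gene, was gained in KO clones at 11.3% ± 3.72 against 2.22% ± 0.828 (limma adjusted p = 0.0255) and on day 21 at 9.83% ± 3.12 against 1.32% ± 1.09 on day 0 (limma adjusted p = 0.00808).

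FOXA2 (gene 3170, chromosome 20, 22580998 to 22585490, 4493 bp) was bare of peaks in 26 of 30 libraries. All 4 KO libraries were at 0%, against 23.8% and 6.48% in KO parental libraries. Among dTAG clone libraries FOXA2 was 6.90% covered in 1 clone 8 library on day 0 and 0% in the other 15. In the dTAG parental line it was 27.2% covered in 1 library on day 21 and 0% in the others. The KO loss of FOXA2 therefore rests on peaks of 1068 and 291 bp in the KO parental libraries, with -log10 q of 2.27 and 1.64, and it was 0 with lists of equal length.

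Set side by side, KO parental exceeded dTAG parental on day 0 at FOXA2 by 15.1 ± 5.61 percentage points (SE; adjusted p = 1 in limma). Within dTAG parental cells, day 21 minus day 0 was 13.6 ± 5.61 percentage points (SE; adjusted p = 1 in limma). The day 21 libraries there had an SD of 19.2, and without replicate 2, at 0%, day 21 rests on the library at 27.2%. The fit pools its spread over 15 groups, and FOXA2 was at 0% in 26 of 30 libraries. Its SEs for FOXA2, here and in the KO comparison, thus draw on many groups with no spread.

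FOXA1 (gene 3169, chromosome 14, 37589552 to 37595249, 5698 bp), the paralogue of FOXA2, showed peaks in 5 of 30 libraries. KO clone 12 had 13.4% in 1 library, and the dTAG clones 4.23% and 9.09% in 2 libraries on day 7, 7.62% in 1 on day 14 and 15.4% in 1 on day 21. Its coverage was 0% in 2 of 2 KO parental, 4 of 4 day 0 and 8 of 8 dTAG parental libraries. No group had coverage in both replicates, and TTC6, which lies 0.380 kb away, averaged 0.0288% over all libraries.

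FOXF1 (gene 2294, chromosome 16, 86510527 to 86515422, 4896 bp), a forkhead factor of the gut mesenchyme, was covered in 30 of 30 libraries. KO clone 3 libraries held 23.8% and 21.3% and KO clone 12 libraries 26.3% and 24.4%, against 49.4% and 48.5% in KO parental libraries. The groups did not overlap, and their means were 24.0% ± 2.09 (SD, n = 4) and 49.0% ± 0.664 (SD, n = 2). The dTAG clones showed no such gap, and averaged 23.5% ± 2.57 on day 0, 26.7% ± 2.30 on day 7, 21.6% ± 3.34 on day 14 and 25.3% ± 5.21 on day 21 (SD, n = 4 each). All 4 KO libraries lay within the dTAG clones' range of 17.0% to 30.3%, and dTAG parental libraries ran from 13.9% to 53.3% with a median of 18.9%.

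The gap at FOXF1 came from where peaks ended. All libraries shared a block between 1 and 3 kb from the lower-coordinate end, which was 58.6% ± 5.11 covered in KO clones (SD, n = 4) and 69.9% ± 1.63 in KO parental libraries (SD, n = 2). The lowest 1 kb was 0% covered in 4 of 4 KO libraries and 100% covered in both KO parental libraries. It was also 0% covered in 16 of 16 dTAG clone libraries and in 6 of 8 dTAG parental ones, with 100% in 1 on day 14 and 33.8% in 1 on day 21. In KO parental libraries a peak of 3438 to 4248 bp ran from below the gene into it, while 4 of 4 KO libraries listed a separate peak within 3 kb below the gene. When peaks were joined over gaps of up to 3 kb, the KO clones minus KO parental difference at FOXF1 turned to 1.17 percentage points, in place of -25.0. It was -6.24 with lists of equal length and 0 among peaks with -log10 q of at least 5. KO parental exceeded dTAG parental on day 0 by 30.0 ± 8.27 percentage points (SE; adjusted p = 0.49 in limma). A second peak 7 to 10 kb above that end was listed in 30 of 30 libraries.

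**Figure D3:**
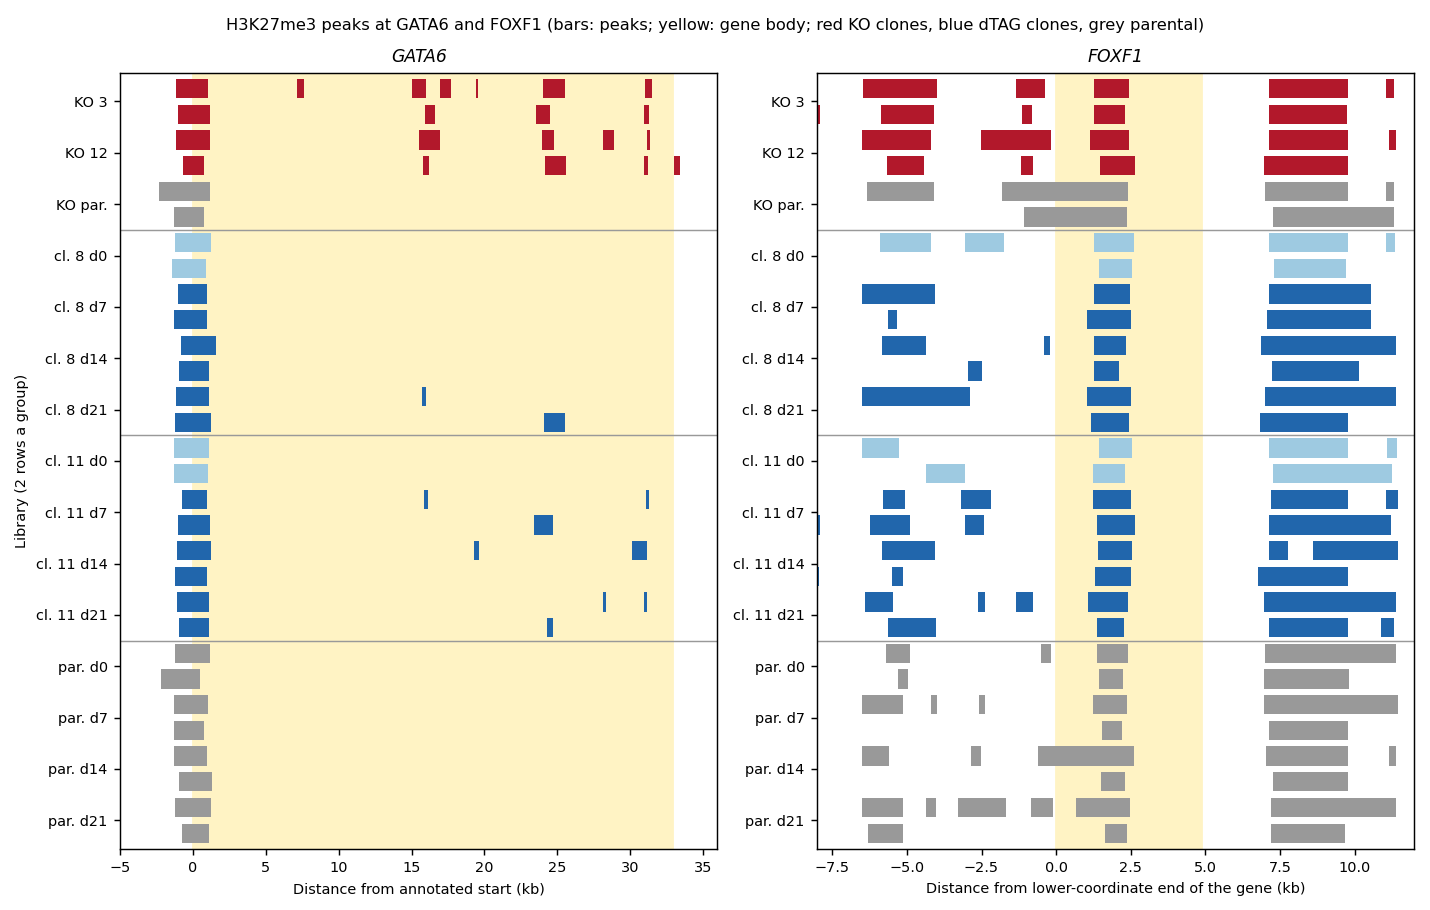
H3K27me3 peaks (bars) at GATA6, against distance from the annotated start, and at FOXF1, against distance from its lower-coordinate end, both in kb (x axes), 1 row for each of 30 libraries by clone and day (y axis), with gene bodies shaded. Peaks beyond 2 kb in GATA6 occur in the KO clones and in some treated dTAG clone libraries, and the 2 KO parental libraries fill the lowest 1 kb of FOXF1.

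GATA6 (gene 2627, chromosome 18, 22169589 to 22202528, 32940 bp), an early endoderm and heart factor, was covered more in the KO clones. KO clone 3 libraries were 16.4% and 9.41% covered and KO clone 12 libraries 13.4% and 8.94%, against 3.45% and 2.33% in KO parental libraries. Every KO library stood above both. The means were 12.0% ± 3.52 (SD, n = 4) and 2.89% ± 0.790 (SD, n = 2). Their difference of 9.15 percentage points was 4.59 when divided by called length, 0.72 with lists of equal length and 0.21 among peaks with -log10 q of at least 5. In the dTAG clones the means were 3.20% ± 0.393 on day 0, 4.38% ± 2.18 on day 7, 4.72% ± 2.25 on day 14 and 5.39% ± 1.91 on day 21 (SD, n = 4 each), and day 21 libraries lay above those of day 0. Divided by called length, the day 21 difference turned to -1.62 percentage points.

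The peak at the GATA6 start was a fixture. It covered 51.2% ± 8.78 of the first 2 kb in KO clones (SD, n = 4), 47.7% ± 13.0 in KO parental libraries (SD, n = 2), 52.7% ± 6.47 on day 0 and 56.6% ± 4.40 on day 21 in the dTAG clones (SD, n = 4 each). The remaining 30.9 kb made the difference: 9.51% ± 3.57 of it was covered in KO clones (SD, n = 4) and 0% in both KO parental libraries. It was 0% in 4 of 4 day 0 libraries and 8 of 8 dTAG parental libraries, and 2 of 4, 1 of 4 and 4 of 4 dTAG clone libraries had coverage on days 7, 14 and 21. Peaks recurred at like positions, 15 to 18 kb, 23 to 26 kb and 30 to 32 kb from the start, each in 4 of 4 KO libraries. On day 21 they were listed in 1, 2 and 1 of 4 dTAG clone libraries. Their -log10 q lay between 1.14 and 3.80 in the KO clones, against 11.7 to 18.3 for the strongest GATA6 peak in the same libraries.

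GATA4 (gene 2626, chromosome 8, 11676935 to 11760002, 83068 bp), which acts beside GATA6, was covered in 30 of 30 libraries by the strongest peaks of the set, with a fold over background of up to 11.1. KO clone 3 libraries held 20.4% and 18.1% and KO clone 12 libraries 18.5% and 14.1%, against 12.7% and 12.0% in KO parental libraries. The groups did not overlap. The dTAG clones averaged 6.75% ± 2.08 on day 0, 13.7% ± 2.84 on day 7, 12.8% ± 3.63 on day 14 and 14.6% ± 3.97 on day 21 (SD, n = 4 each). dTAG parental libraries ran from 5.28% to 14.0%, with a median of 11.3%. Under the scaling by called length, the differences turned to -4.72 percentage points in KO clones and -1.19 on day 21. With lists of equal length they were -1.73 and 0.18. SOX17 (gene 64321, chromosome 8, 54457935 to 54460892), needed for definitive endoderm, had no peak in any library, with the nearest gene, LOC100129098, also at 0%.

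**Figure D4:**
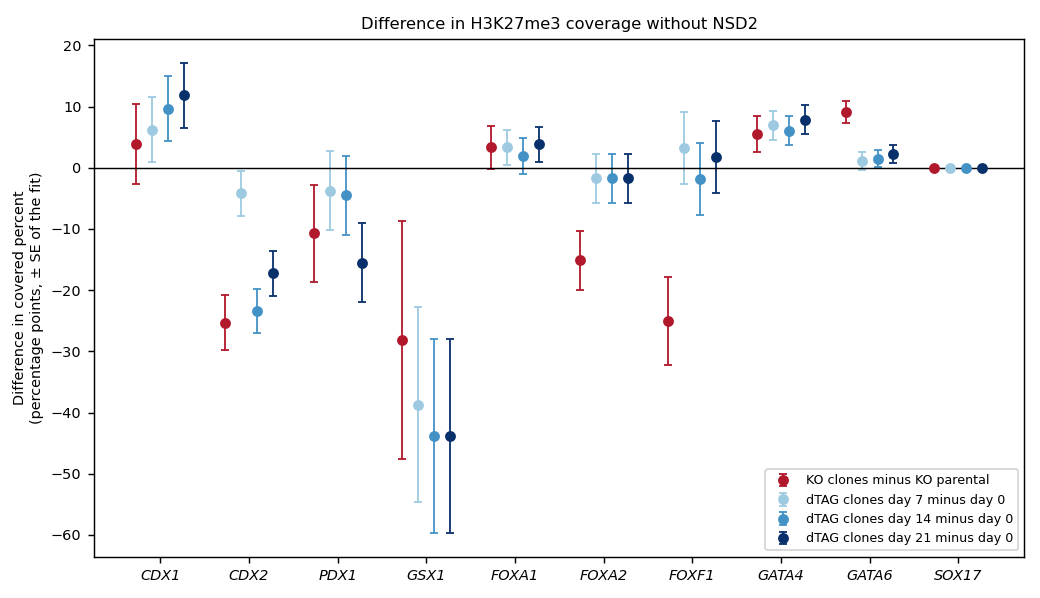
Difference in covered percent, in percentage points (y axis), for each of the 10 genes (x axis): KO clones minus KO parental, and dTAG clones on days 7, 14 and 21 minus day 0; bars are ± 1 SE of the fit, and SOX17, at 0 throughout, has none. CDX2, GSX1, PDX1 and FOXA2 lie under 0 in all 4 comparisons. CDX1, FOXA1, GATA4 and GATA6 lie above 0 in all 4 before scaling by called length. FOXA2 and FOXF1 stand far below 0 in the KO comparison, at -15.1 and -25.0.

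Read over all 10 genes, the median KO difference was -5.37 percentage points, against 1.46 over all tested genes. Without KO parental replicate 1 it was 1.68 and without KO parental replicate 2 -10.8. In the dTAG clones the median was 0.59 on day 7, -0.86 on day 14 and 0.89 on day 21, against 1.90, 1.504 and 2.05 over all tested genes. Libraries did not overlap for 2 members above (GATA4, GATA6) and 3 below (CDX2, FOXA2, FOXF1) in the KO comparison, where 28.6% and 4.26% of all tested genes did so. On day 7, 2 stood above day 0 (CDX1, GATA4), against 29.8%, and on day 14, 1 stood below (CDX2), against 1.17%. On day 21, 1 stood above (GATA6) and 1 below (CDX2), against 27.6% and 0.866%. The members were chosen on these contrasts, so the shares describe the choice.

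In comparisons that did not choose the members, limma called 0 of 9 in dTAG parental cells on day 7, day 14 or day 21 against day 0, where it called 0%, 0% and 0.0143% of all tested genes. At an unadjusted p under 0.05 the counts were 0, 0 and 1, against 292, 349 and 536 of the 13977 tested genes. Between KO clone 3 and KO clone 12 limma called 0 of 9, where it called 3.86% of tested genes gained and 0.093% lost. At an unadjusted p under 0.05 there were 0 members, against 2163 of all tested genes. CDX2 and FOXF1 stood wholly lower in clone 3, as 7.44% of tested genes did. Between KO parental and dTAG parental on day 0 limma called 0 of 9, where it called 0.0572% of tested genes gained and 0% lost. At an unadjusted p under 0.05 there were 3 members, against 527 of all tested genes. The 3 were PDX1, FOXA2 and FOXF1, all higher in KO parental. CDX1, PDX1, FOXA2 and FOXF1 stood wholly higher in KO parental, as 15.1% of tested genes did. These libraries also serve as controls in the comparisons that chose the members.

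Of 58 further endoderm and gut factors, 47 could be tested. In KO clones 3 of the 47 were gained and 1 lost by limma, where it called 18% of all tested genes gained and 0.744% lost. The median difference was 1.20 percentage points, against 1.46 over all tested genes. PROX1, a liver and lymphatic factor, was 9.03% ± 1.63 covered in KO clones and 4.71% ± 0.778 in KO parental libraries (adjusted p = 0.00301). ISL1, a pancreatic and neuronal factor, was 11.3% ± 10.6 covered and 0% in KO parental libraries (adjusted p = 0.0387), and ONECUT2, a liver factor, 2.52% ± 1.19 and 0.588% ± 0.372 (adjusted p = 0.0453). The loss was FOXH1, a partner of NODAL signalling, with 44.9% ± 13.6 in KO clones and 68.9% ± 3.57 in KO parental libraries (adjusted p = 0.0239). FOXH1 was not called when either KO parental library, KO clone 3 replicate 1 or KO clone 12 replicate 2 was left out.

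On day 21, 4 of the 47 were gained and 1 lost, where limma called 26.5% of all tested genes gained and 0.494% lost. The median difference was 2.23, against 2.05 over all tested genes. HNF4A, a hepatocyte factor, was 18.5% ± 6.45 covered on day 21 and 7.70% ± 4.73 on day 0 (adjusted p = 0.0339). NEUROD1, an endocrine pancreas factor, was 5.17% ± 1.25 covered on day 21 and 0% on day 0 (adjusted p = 0.00042). EOMES, a factor of early endoderm, was 17.3% ± 1.104 covered on day 21 and 4.62% ± 5.79 on day 0 (adjusted p = 0.0300). NKX2-3, a gut mesenchyme and spleen factor, was lost, with 5.36% ± 9.23 on day 21 and 25.2% ± 3.20 on day 0 (adjusted p = 0.0218). It was not called without clone 8 day 21 replicate 1, clone 11 day 0 replicate 1 or clone 11 day 21 replicate 2. On day 7, 2 were gained, NODAL among them, and 0 lost (background 21.1% and 0.243%). On day 14 SOX2, ONECUT2 and NEUROD1 were gained and 0 lost (background 22% and 0.63%). In dTAG parental cells limma called 0 of the 47 on day 21 (background 0.0143% gained and 0% lost), and the difference from the clones was not tested.

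The genes whose coverage ran most like each of the 3 lost members were ranked by Pearson's r over the 30 libraries, as a description. For CDX2 they were FAM90A20 (r = 0.893), TBX5 (r = 0.785), a limb and heart factor, and FAM90A24 (r = 0.770). TBX5 was 1.55% covered in KO clones against 6.32% in KO parental libraries, and 0% on day 21 against 5.14% on day 0. The FAM90A genes belong to a multicopy family, so their values are uncertain. For FOXA2 they were TNFRSF6B (r = 0.837), WDR6 (r = 0.828) and PRAMEF4 (r = 0.824), and for FOXF1 TLE7 (r = 0.756), TBC1D21 (r = 0.731) and CSH1 (r = 0.722). These r values share the libraries' depth and list length.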

How the data were processed

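H3K27me3 peak lists of 30 CUT&Tag libraries were analysed; 10 libraries in the labels (IgG, H3K27ac, H3K4me3) were not analysed here. Per the submitters' processing notes, the authors used hg38 and, with no roles stated, MACS3 3.0.2, fastp 0.24.0, ChIPseeker 1.42.1, deepTools 3.5.1, Picard, DESeq2, SAMtools and Bowtie2. Each deposited list holds peaks of 1 library with a score, a fold ratio over the caller's background, -log10 p and -log10 q; these were used to describe and filter peaks. The sources used here do not give calling options or any control.

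Peaks were merged, and each RefSeq protein-coding gene (GRCh38.p14, at least 1000 bp, chromosomes 1 to 22 and X) was scored by its percent of bases inside peaks. Genes with a mean of 1% to 99% (13977) entered limma 3.58.1 in R 4.3.3, with 1 mean for each of 15 groups over 30 libraries, eBayes with a trend and Benjamini-Hochberg adjusted p under 0.05 over all tested genes. Every adjusted p in the text is limma's. The fit takes its spread from the 2 libraries within each group, so these p-values do not measure variation between clones. An SD with n = 4 spans the libraries of 2 clones. Gained and lost mean called with a higher or lower percent. The fit was also run on simulated data with independent noise and large planted shifts in genes of middling coverage. That run cannot speak for genes without peaks in most libraries, such as FOXA1 and FOXA2. Other software was data.table (version 1.17.8), matplotlib 3.10.9, scipy 1.17.1, numpy 2.4.6, Python 3.11.15 and pandas 2.3.3.

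Members and lists were chosen with earlier results of these data known. Members therefore carry no p in the KO comparison or in the dTAG clones' days against day 0. Named were all members, the called genes of the endoderm list (at most 4 a direction), the nearest genes and the 3 genes most like each lost member. 1 called gene of the endoderm list is not reported here. Depth was estimated as the background pileup that solves fold and p of the shortest 2% of peaks, assuming a pseudocount of 1 and a genome-wide background. Read counts are unknown, so no counting interval is given, and an unlisted region can still carry the mark. The series text calls the clones' replicates biological; for parental libraries nothing says so, and p-values there may measure technical spread only. Alternatives are given in the closing section.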

Additional observations from a re-analysis of the deposited data

Results flagged for a closer look

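Of 38 sets of 4 libraries examined, 9 held a library far from the other 3. In 6 of them the other 3 were at 0%, where any single peak stands apart, so the usual chance rate of about 1 set in 20 does not apply. GSX1 was 44.7% covered in KO clone 3 replicate 1 and 0% in the other KO clone libraries, and 20.5% in clone 11 replicate 1 on day 7 with the others at 0%. FOXA1 was 13.4% covered in KO clone 12 replicate 2, 7.62% in clone 11 replicate 1 on day 14 and 15.4% in clone 8 replicate 1 on day 21, with 0% in the rest of each set. On day 0, clone 8 replicate 1 stood above the others at FOXA2 (6.90%), FOXF1 (27.3%) and GATA4 (9.85%). GATA6 was 8.23% covered in clone 8 replicate 2 on day 21.

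For 2 genes, at 1 day each, every library of the clones lay below their day 0 mean and every dTAG parental library above its own. The change at PDX1 from day 0 to day 21 differed between clones and parental line by -20.2 percentage points, and that at GSX1 from day 0 to day 14 by -78.4. Neither difference was tested.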

How the results depend on the processing

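Over the members, the median KO difference of -5.37 percentage points became -16.1 when coverage was divided by called length and 0.585 when peaks were joined over gaps of up to 3 kb, and ran from -10.8 to 1.68 when each library was left out in turn, the highest without KO parental replicate 1. The day 7 median became -2.74 under the scaling and the day 21 median -3.52 with pileup as covariate. Leaving out a library gave 0.187 to 0.999 on day 7, -1.53 to 0 on day 14 and -0.266 to 1.21 on day 21. The scaling moved the median of all tested genes to -1.31 in the KO comparison and -1.36 on day 21.

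Single members reversed as follows. FOXF1 in KO became 1.17 with joined peaks. GATA4 in KO became -4.72 scaled, -1.73 with lists shortened to equal length, -1.51 with -log10 q of at least 5 and -0.158 with a fold of at least 4; on day 21 it became -1.19 scaled, -0.380 by q and -0.00752 by fold. CDX1 on day 21 became -0.0329 scaled and -1.72 with equal lists, PDX1 6.25 by fold and GATA6 -1.62 scaled. Changes of sign in differences within the spread of libraries were CDX1 in KO (3.84 to -13.1 scaled, -10.1 with equal lists and -2.92 by q), PDX1 in KO (-10.7 to 4.31 by fold) and FOXF1 on day 21 (1.78 to -24.9 scaled, -5.32 with equal lists, -5.59 by q and -7.03 with pileup). CDX2 kept its sign under all 7 settings in both comparisons except the fold filter, which left it at 0. By q it rested on KO parental replicate 1 alone in KO, and on clone 8 day 0 replicate 1 alone on day 21. FOXA2 and GSX1 in KO were 0 with equal lists, by q and by fold. FOXF1 in KO was -6.24 with equal lists and 0 by q and by fold, and GSX1 on day 21 -10.3 with equal lists and 0 by q and by fold. GATA6 in KO fell short of its 9.15 at 0.72 with equal lists, 0.21 by q and 0.58 by fold.

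Members called stayed at 0 in the parental, untreated, KO clone and between-parental comparisons under every setting except 1 call on day 21 in dTAG parental without its day 21 replicate 2 (range 0 to 1). For the other endoderm genes in KO, gained and lost were 0 and 9 scaled, 1 gained with equal lists, 0 and 0 by q, 0 and 0 by fold, 1 and 0 with joined peaks, 5 and 0 with 5 kb added on each side, 1 gained with pileup, 0 gained with only the compared groups fitted and 5 gained without the filter; leaving out a library gave 0 to 4 gained and 0 to 1 lost. On day 21 they were 2 and 23 scaled, 1 and 4 with equal lists, 0 and 0 by q, 0 and 0 by fold, 9 gained with 5 kb added, 2 and 3 with pileup and 7 gained with only the compared groups; leaving out a library gave 2 to 6 gained and 0 to 2 lost. Over all tested genes on day 21, gained and lost were 2177 and 4452 of 13932 scaled and 535 and 533 of 10483 with equal lists. They were 5393 and 66 of 15679 with 5 kb added and 2252 and 649 of 13977 with pileup. In KO they were 1515 and 1882 scaled and 251 and 227 with equal lists. With 5 kb added they were 3136 and 95 in KO, and with pileup 2384 and 413. The cause of these shifts was not tested. With the replicate number as a block the day 21 counts of the other endoderm genes were 8 gained and 2 lost. Over all tested genes the block called 4449 gained and 116 lost on day 21. Same-numbered libraries correlated at 0.0335 to 0.558 over 105 pairs of groups (105 over 0 and 84 over 0.1), and replicate 1 had the longer list in 13 of 15 groups. Since the labels tie no numbers together and not every pair passed 0.1, the block was not adopted. The main fit therefore leaves what same-numbered libraries share in its spread. Over all genes the block called 3030 gained and 167 lost in KO, in place of 2510 and 104.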
